A study of Homo sapiens with 12 samples.

Results

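The 9 genes described here belong to the innate immune machinery that detects misplaced nucleic acids, and they were taken by symbol from a table of 60591 genes. IFIH1, DHX58, TLR3, EIF2AK2, IFI16 and ZBP1 encode proteins that bind RNA or DNA. MAVS, TBK1 and IRF3 encode the adaptor, the kinase and the transcription factor that carry the signal onward. All 9 were listed in the table, 8 had enough reads to be tested, and ZBP1 did not.

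Cells carry receptors for nucleic acids that should not be where they are found, such as long double-stranded RNA in the cytosol or in endosomes, or DNA outside the nucleus. Bound receptors recruit adaptors that activate the kinase TBK1, which phosphorylates the transcription factor IRF3, and IRF3 then switches on type I interferon and chemokine genes. Secreted interferon acts back on cells through its receptor, and many of the sensors are themselves genes that interferon induces.

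RNA-seq libraries came from 2 established lines of human non-small cell lung cancer, PC9 and H1650, which the study describes as carrying an activating EGFR deletion and which the labels call wild-type. Cells of each line were collected at T0 (0 h, 0.1% DMSO), after 36 h with 10 µM erlotinib, or after 36 h with 0.1 µM osimertinib, both inhibitors of the EGFR kinase, with 2 libraries in each of 6 groups. The study asked how drug-induced expression differs between PC9, in which EGFR inhibitors cause cell death, and H1650, in which the study saw no death caused by the drugs. No library of vehicle-treated cells at 36 h was analysed here, so a change with drug and a change with time in culture cannot be told apart, and every drug comparison below shares its T0 libraries with the other drug in that line. The study calls the replicates biological, while the labels do not say whether they were separate cultures, and the p-values measure the spread between these libraries.

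Library totals ran from 17961765 to 26346187 reads on genes, with a median of 21581420.5, and 3 reads, the most that a count of 0 allows, corresponded to 0.116 to 0.168 CPM, the read count scaled to a common library size. This limit covers counting error only. Library sizes were normalized by the trimmed mean of M values (TMM). Changes are log2 fold changes with the standard error (SE) from edgeR's quasi-likelihood model of all 12 libraries, and a gene is called at a Benjamini-Hochberg adjusted p under 0.05 over 19108 tested genes. In bulk RNA, fewer cells expressing a gene and less RNA per cell cannot be told apart. Epithelial markers (EPCAM, KRT8, KRT18, KRT19, CDH1) were present in all 12 libraries, with summed levels between 5166 and 9156 CPM. Summed levels of 7 leukocyte markers, including PTPRC and CD3E, were 4.03 to 5.63 CPM in PC9 at T0, 6.75 to 7.39 with erlotinib and 17.4 to 19.1 with osimertinib, against 2.14 to 4.25 in H1650. ITGAM reached 18.3 CPM and CD14 reached 3.96 CPM (83 reads), while PTPRC never exceeded 5 reads and LYZ never exceeded 2. Summed levels of 4 fibroblast markers were 18.3 to 21.1 CPM in PC9 at T0, 20.4 to 24.1 with erlotinib, 36.8 to 44.9 with osimertinib, and 10.3 to 15.4 in H1650, nearly all of it COL1A1. The 3 endothelial markers summed to between 0.193 and 5.55 CPM. The part of these differences in the values below was not tested.

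Positions of the genes in GENCODE 29 on GRCh38 are chr2:162267079-162318703 (minus strand) for IFIH1, chr17:42101404-42112733 (minus) for DHX58, chr4:186069152-186088069 (plus) for TLR3, chr2:37099210-37157065 (minus) for EIF2AK2 and chr1:158999968-159055155 (plus) for IFI16. ZBP1 lies at chr20:57603846-57620576 (minus), MAVS at chr20:3846799-3876123 (plus), TBK1 at chr12:64451880-64502108 (plus) and IRF3 at chr19:49659569-49665875 (minus). Exons of EIF2AK2 overlap GPATCH11 and AC007899.1 on the opposite strand, those of TBK1 overlap AC135279.3, and those of IRF3 overlap BCL2L12. The strand setting of the counting is not given in the sources used here, so reads of these overlapping genes may be mixed.

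Because many sensors are interferon-induced, the promoters were searched for the core letters of the interferon-stimulated response element. RefSeq promoters on GRCh38.p14, from 250 bases before to 50 after each start, were matched for IFIH1, TLR3, EIF2AK2, IFI16, MAVS and TBK1. GAAANNGAA, read on either strand, was found in 8.11% of all 35116 promoters and in those of 4 of these 6 genes. The IFIH1 promoter held 4 matches, 3 of which overlap each other. Windows around each match are printed 5′ to 3′ along the gene, with the matched bases in capitals and 10 bases on each side, and positions are counted from the start, which is 1. A match read from the other strand appears as TTCNNTTTC.
IFIH1, chr2:162318818-162318858, minus strand, -174 to -134: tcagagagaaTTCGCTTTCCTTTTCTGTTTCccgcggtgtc
IFIH1, chr2:162318687-162318715, minus strand, -31 to -3: gaagagaatcGAAACAGAAaccaaagtca
TLR3, chr4:186069143-186069171, plus strand, -13 to 16: aagctttactTTCACTTTCgagagtgccg
EIF2AK2, chr2:37156968-37156996, minus strand, -16 to 13: agtccaagggGAAAACGAAactgagaacc
IFI16, chr1:159009823-159009851, plus strand, -84 to -56, in 1 of its 2 listed promoters: caggaaactgTTCATTTTCtctgactaac
The letters TTCNNNGAA, a core bound by STAT dimers, were found in 7.66% of all promoters and, among the 6 genes, in TLR3 at 2 places.
TLR3, chr4:186068968-186068996, plus strand, -188 to -160: ctgtgaccctTTCAATGAAatccaaggat
TLR3, chr4:186069096-186069124, plus strand, -60 to -32: ccctttgcccTTCTTGGAAtgcaccaaac
Neither set of letters was found in the windows of MAVS and TBK1. These matches are descriptions of sequence and no binding was measured.

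In PC9, 5 of the 8 tested genes were called higher with erlotinib than at T0, where 32.7% of all tested genes were, and 2 were called lower, where 29.1% were. With osimertinib in PC9, 5 were also called higher than at T0, against 32.7% of all genes, and 2 lower, against 28.7%. The genes that rose in PC9 were IFIH1, DHX58, TLR3, IFI16 and MAVS, those that fell were EIF2AK2 and TBK1, and IRF3 was not called. In H1650, 7 of the 8 were called higher and 0 lower with erlotinib, where 18.0% of all genes were called higher and 18.5% lower. With osimertinib 7 were called higher and 0 lower, where the shares were 17.8% and 17.9%. TBK1 was the gene not called in H1650. The median log2 change of the 8 genes was 0.57 and 0.48 with erlotinib and osimertinib in PC9, beside 0.074 and 0.064 over all genes, and 0.72 and 0.78 in H1650, beside 0.0051 and 0. The genes were chosen with earlier results of these data known, so the counts beside the all-gene shares are descriptions.

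**Figure D1:**
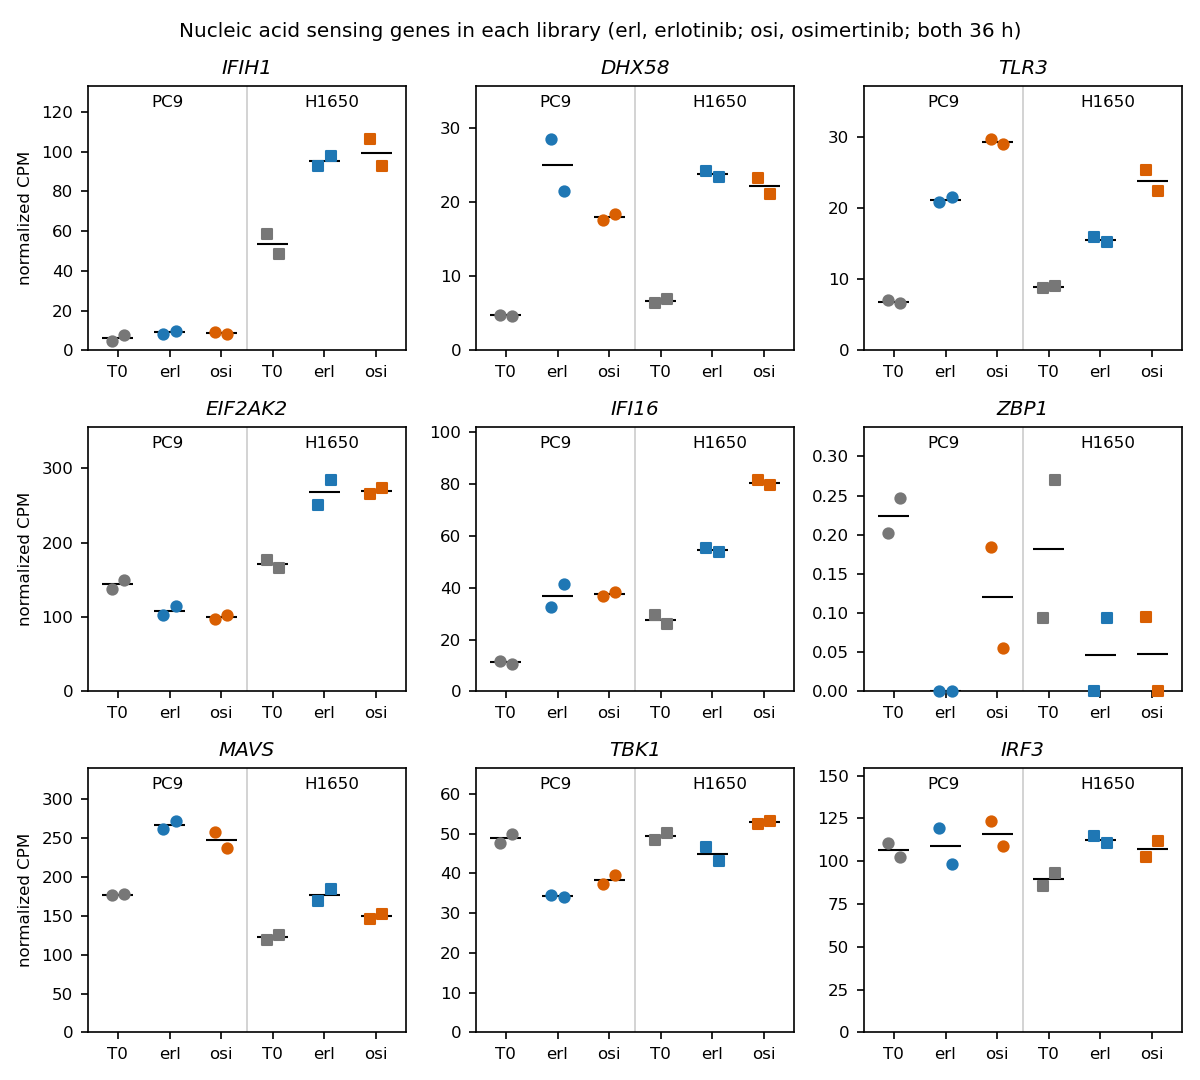
Normalized CPM (linear axis from 0) of each of the 9 genes in each of the 12 libraries, with PC9 as circles and H1650 as squares, T0 in grey, erlotinib in blue and osimertinib in orange, and a bar at the mean of 2 libraries. IFIH1 lies below 10 CPM in every PC9 library and above 48 in every H1650 library, EIF2AK2 falls in PC9 and rises in H1650, and ZBP1 stays at or below 0.270 CPM.

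IFIH1 encodes MDA5, the cytosolic receptor for long double-stranded RNA. In PC9 its level was 4.69 and 7.75 CPM at T0, 8.47 and 9.84 with erlotinib, and 9.11 and 8.24 with osimertinib. These levels rest on 93 to 252 reads per library. The treated libraries all lay above both T0 libraries, but the T0 libraries differed from each other more than the treated ones did. IFIH1 rose by 0.56 on the log2 scale with erlotinib (SE 0.168, edgeR adjusted p = 0.0052) and by 0.48 with osimertinib (SE 0.174, edgeR adjusted p = 0.018). Without PC9 T0 replicate 1 the changes were 0.24 and 0.16, and neither was called (edgeR adjusted p = 0.26 and 0.47). The erlotinib call was also lost without PC9 erlotinib replicate 2 (0.44), and the osimertinib call without PC9 osimertinib replicate 1 (0.40) and when each line was fitted alone (0.42).

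In H1650, IFIH1 stood at 58.3 and 48.5 CPM at T0, 92.8 and 97.6 with erlotinib, and 106.4 and 92.6 with osimertinib. Every treated library lay above both T0 libraries. The rise was 0.84 with erlotinib (SE 0.111, edgeR adjusted p = 8.0e-07) and 0.90 with osimertinib (SE 0.111, edgeR adjusted p = 2.5e-07). Before treatment IFIH1 was 8.55-fold higher in H1650 than in PC9 (log2 3.10, SE 0.144, edgeR adjusted p = 5.9e-17), the widest gap between the lines among the 8 genes. With the summed exon length of each gene taken into account, IFIH1 was the seventh of the 9 genes at T0 in PC9, at 1.22 ± 0.425 CPM per kb (SD, n = 2), and the third in H1650, at 10.5 ± 1.37 CPM per kb (SD, n = 2).

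DHX58 encodes LGP2, a relative of MDA5 without signaling domains that modulates it. In PC9 its level was 4.84 and 4.64 CPM at T0, 28.6 and 21.6 with erlotinib, and 17.6 and 18.4 with osimertinib. The H1650 libraries gave 6.39 and 6.95 CPM at T0, 24.3 and 23.4 with erlotinib, and 23.2 and 21.1 with osimertinib. No treated library overlapped T0 in either line. In each line both erlotinib libraries were above both osimertinib libraries, in H1650 only narrowly (23.4 against 23.2 CPM). The changes were 2.40 (SE 0.148, edgeR adjusted p = 4.5e-14) and 1.93 (SE 0.153, edgeR adjusted p = 9.2e-12) with erlotinib and osimertinib in PC9, 5.27-fold and 3.80-fold. In H1650 they were 1.83 (SE 0.139, edgeR adjusted p = 3.3e-11) and 1.73 (SE 0.139, edgeR adjusted p = 1.2e-10), 3.56-fold and 3.31-fold. DHX58 had the largest rise of the 8 genes in each of these comparisons except osimertinib in PC9, where TLR3 had it.

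RIGI encodes RIG-I, the third receptor of this helicase family, which detects RNA with a 5′ triphosphate. It is listed as DDX58, is not among the 9 genes and was chosen after its values were seen. Its mean level was 9.07 ± 0.852 CPM in PC9 at T0, 7.83 ± 1.07 with erlotinib and 14.02 ± 0.469 with osimertinib (SD, n = 2 each). In H1650 the means were 53.0 ± 0.362, 124.9 ± 2.83 and 136.9 ± 4.38 CPM (SD, n = 2 each). RIGI was thus also lower in PC9 than in H1650 at T0 (log2 2.54, SE 0.102, edgeR adjusted p = 1.8e-18). It was not called with erlotinib in PC9 (-0.21, SE 0.122, edgeR adjusted p = 0.14) and rose with osimertinib (0.63, SE 0.115, edgeR adjusted p = 3.0e-05). In H1650 it rose by 1.24 and 1.37 (edgeR adjusted p = 2.4e-12 and 4.0e-13), and the line difference was 1.44 with erlotinib and 0.74 with osimertinib (edgeR adjusted p = 4.2e-09 and 9.1e-05).

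TLR3 encodes the endosomal receptor for double-stranded RNA, which signals through TICAM1 and not through MAVS. PC9 libraries had 7.06 and 6.66 CPM at T0, 20.8 and 21.6 with erlotinib, and 29.7 and 28.98 with osimertinib. In H1650 it was 8.77 and 9.07 CPM at T0, 15.9 and 15.2 with erlotinib, and 25.3 and 22.4 with osimertinib. The order T0, erlotinib, osimertinib held without overlap in both lines. TLR3 rose by 1.63 (SE 0.126, edgeR adjusted p = 5.2e-12) and 2.10 (SE 0.125, edgeR adjusted p = 1.7e-14) in PC9, and by 0.80 (SE 0.123, edgeR adjusted p = 7.0e-06) and 1.42 (SE 0.119, edgeR adjusted p = 2.4e-10) in H1650.

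EIF2AK2 encodes PKR, a kinase that binds double-stranded RNA and phosphorylates the translation factor eIF2α. PC9 libraries held it at 138 and 149.6 CPM at T0, 103 and 115 with erlotinib, and 97.5 and 103 with osimertinib. In H1650 it was 177 and 166 CPM at T0, 251 and 284 with erlotinib, and 265 and 274 with osimertinib. Every treated PC9 library lay below both T0 libraries and every treated H1650 library lay above them. EIF2AK2 fell by 0.40 (SE 0.0792, edgeR adjusted p = 6.7e-05) and by 0.52 (SE 0.0799, edgeR adjusted p = 2.1e-06) with erlotinib and osimertinib in PC9. It rose by 0.64 (SE 0.0776, edgeR adjusted p = 1.6e-07) and by 0.65 (SE 0.0775, edgeR adjusted p = 1.3e-07) in H1650. All 4 calls were kept in each of the other settings and with each library left out, with changes between -0.61 and -0.31 in PC9 and between 0.54 and 0.73 in H1650.

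IFI16 encodes a DNA-binding protein of the PYHIN family that senses DNA in the nucleus and the cytosol. Its level in PC9 was 11.9 and 10.7 CPM at T0, 32.4 and 41.3 with erlotinib, and 36.8 and 38.5 with osimertinib. The H1650 levels were 29.5 and 25.9 CPM at T0, 55.4 and 53.7 with erlotinib, and 81.7 and 79.5 with osimertinib. Treated libraries were above T0 in both lines, and in H1650 those with osimertinib were also above those with erlotinib. IFI16 rose by 1.71 (SE 0.115, edgeR adjusted p = 3.0e-13) and 1.73 (SE 0.116, edgeR adjusted p = 2.4e-13) in PC9, and by 0.98 (SE 0.102, edgeR adjusted p = 1.2e-08) and 1.54 (SE 0.101, edgeR adjusted p = 1.9e-12) in H1650. At T0 it was 2.45-fold higher in H1650 than in PC9 (log2 1.29, SE 0.117, edgeR adjusted p = 1.3e-10).

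ZBP1 encodes a sensor of left-handed nucleic acid (Z-RNA and Z-DNA) that can start necroptosis through RIPK3. It had 4 and 5 reads in PC9 at T0, 0 and 0 with erlotinib, and 4 and 1 with osimertinib. In H1650 it had 2 and 7 reads at T0, 0 and 2 with erlotinib, and 2 and 0 with osimertinib. At 7 reads or fewer per library ZBP1 was below the filter on low counts and was left out of the comparisons reported here. With no filter, ZBP1 was called lower with erlotinib in PC9 (edgeR adjusted p = 0.038) and not called in the other comparisons, and DESeq2 did not call it there (adjusted p = 0.064).

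MAVS encodes the mitochondrial adaptor on which MDA5 and RIG-I signal. Its PC9 levels were 177 and 178 CPM at T0, 261 and 272 with erlotinib, and 258 and 238 with osimertinib. In H1650 it was 119 and 126 CPM at T0, 169.6 and 185 with erlotinib, and 147 and 153 with osimertinib. Treated libraries were above T0 in both lines. MAVS rose by 0.59 (SE 0.0721, edgeR adjusted p = 4.7e-08) and 0.48 (SE 0.0723, edgeR adjusted p = 1.4e-06) in PC9, and by 0.54 (SE 0.0730, edgeR adjusted p = 1.1e-06) and 0.29 (SE 0.0731, edgeR adjusted p = 0.0022) in H1650. Unlike IFIH1, it was lower in H1650 than in PC9 at T0 (log2 -0.54, SE 0.0730, edgeR adjusted p = 2.4e-07).

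TBK1 encodes the kinase on which the signals of MAVS, TICAM1 and STING1 converge. In PC9 its level was 47.6 and 50.0 CPM at T0, 34.5 and 34.2 with erlotinib, and 37.3 and 39.6 with osimertinib. In H1650 it was 48.5 and 50.2 CPM at T0, 46.6 and 43.1 with erlotinib, and 52.5 and 53.2 with osimertinib. In PC9 every treated library was below T0, and in H1650 erlotinib libraries were below and osimertinib libraries above T0 by small amounts. TBK1 fell by 0.51 (SE 0.0850, edgeR adjusted p = 8.0e-06) and by 0.34 (SE 0.0854, edgeR adjusted p = 0.00093) in PC9. The H1650 changes were -0.14 (95% interval -0.31 to 0.033, edgeR adjusted p = 0.21) and 0.098 (-0.071 to 0.27, edgeR adjusted p = 0.39).

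IRF3 encodes the transcription factor that TBK1 phosphorylates, and its activity is set mainly by that phosphorylation, which RNA levels do not show. In PC9 its level was 110.5 and 103 CPM at T0, 119 and 98.1 with erlotinib, and 124 and 109 with osimertinib, with overlap of both drugs with T0. In H1650 it was 85.5 and 93.3 CPM at T0, 115 and 110.5 with erlotinib, and 103 and 112 with osimertinib, all treated libraries above T0. The PC9 changes were 0.027 (95% interval -0.16 to 0.21, edgeR adjusted p = 0.82) and 0.12 (-0.058 to 0.31, edgeR adjusted p = 0.23). IRF3 rose in H1650 by 0.33 (SE 0.0890, edgeR adjusted p = 0.0040) and by 0.26 (SE 0.0889, edgeR adjusted p = 0.023). Both H1650 calls were lost without H1650 T0 replicate 1 (0.27 and 0.20), and the osimertinib call also without H1650 osimertinib replicate 2 (0.20). Per kb of summed exon length, IRF3 was the highest of the 9 genes in all 6 groups, from 23.6 ± 1.46 CPM per kb in H1650 at T0 to 30.6 ± 2.78 in PC9 with osimertinib (SD, n = 2).

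**Figure D2:**
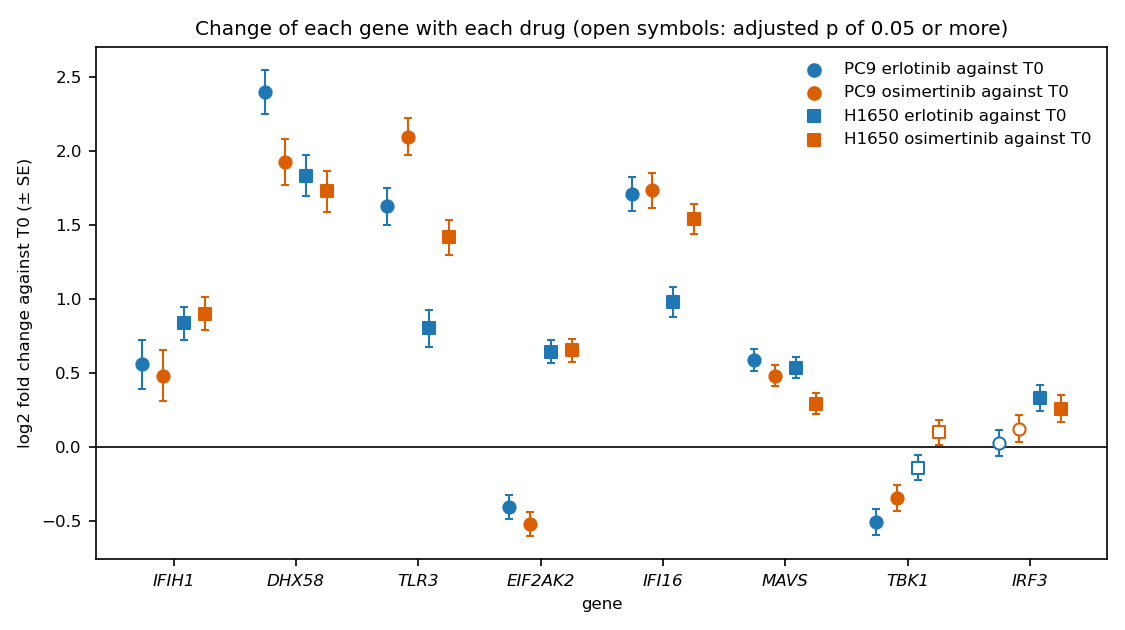
Log2 fold change against T0 of the same line (y axis, ± SE of the edgeR fit) for the 8 tested genes, with PC9 as circles, H1650 as squares, erlotinib in blue and osimertinib in orange, and open symbols for changes not called. DHX58, TLR3 and IFI16 lie between 0.80 and 2.40, EIF2AK2 lies below 0 in PC9 and above 0 in H1650, and IRF3 in PC9 and TBK1 in H1650 are open.

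The difference between the lines was tested for each drug by subtracting the PC9 change from the H1650 change. With erlotinib 5 of the 8 genes differed, 2 with a higher change in H1650 and 3 with a lower one, where 21.1% and 19.8% of all tested genes did. With osimertinib 2 had a higher and 1 a lower change, where 21.5% and 20.5% of all genes did. EIF2AK2 differed by 1.05 with erlotinib (95% interval 0.82 to 1.28, edgeR adjusted p = 8.9e-09) and by 1.17 with osimertinib (0.94 to 1.40, edgeR adjusted p = 1.0e-09). TBK1 differed in the same direction by 0.37 (0.12 to 0.61, edgeR adjusted p = 0.014) and 0.44 (0.20 to 0.69, edgeR adjusted p = 0.0033), though the erlotinib difference was not called without PC9 T0 replicate 2 or without H1650 erlotinib replicate 1 (0.33 in both cases).

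TLR3, the endosomal receptor, rose less in H1650 than in PC9, by -0.83 with erlotinib (95% interval -1.19 to -0.46, edgeR adjusted p = 0.00038) and -0.68 with osimertinib (-1.04 to -0.32, edgeR adjusted p = 0.0021). IFI16 rose less in H1650 with erlotinib (-0.73, interval -1.05 to -0.41, edgeR adjusted p = 0.00033), while the osimertinib difference was -0.19 (-0.51 to 0.12, edgeR adjusted p = 0.35). DHX58 differed by -0.56 with erlotinib (-0.99 to -0.14, edgeR adjusted p = 0.030) and by -0.20 with osimertinib (-0.63 to 0.23, edgeR adjusted p = 0.50). The DHX58 erlotinib call was not kept by DESeq2 (-0.57, adjusted p = 0.072), with no filter (-0.53), or when PC9 T0 replicate 1 or 2, PC9 erlotinib replicate 1, H1650 T0 replicate 2, or H1650 erlotinib replicate 1 or 2 was left out (-0.59 to -0.35). PC9 erlotinib replicate 1 alone moved it from -0.56 to -0.35.

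With TMM normalization, all libraries, the filter on low counts and no replicate block, the remaining 3 genes gave no call between the lines. For IFIH1 and IRF3 this depended on single libraries. For IFIH1 the differences were 0.28 (95% interval -0.14 to 0.70, edgeR adjusted p = 0.30) and 0.42 (-0.0074 to 0.84, edgeR adjusted p = 0.11). The IFIH1 difference was called with both drugs without PC9 T0 replicate 1, at 0.60 and 0.74, and with osimertinib also without H1650 T0 replicate 1 (0.57) and with no filter (0.49). Without PC9 T0 replicate 2 it was -0.13 and 0.011. For MAVS they were -0.053 (-0.26 to 0.16, edgeR adjusted p = 0.74) and -0.19 (-0.40 to 0.022, edgeR adjusted p = 0.15), and the latter was called with upper quartile normalization (-0.25). For IRF3 they were 0.30 (0.046 to 0.56, edgeR adjusted p = 0.054) and 0.13 (-0.12 to 0.39, edgeR adjusted p = 0.43). The IRF3 erlotinib difference was called with no filter (0.34, edgeR adjusted p = 0.016), with the replicate number as a block (0.30, edgeR adjusted p = 0.014) and without PC9 erlotinib replicate 1 (0.45), PC9 osimertinib replicate 1 or 2 (0.30 and 0.31), H1650 T0 replicate 2 (0.37), or H1650 osimertinib replicate 1 or 2 (0.32 in both cases). It was lowest, at 0.17, without PC9 erlotinib replicate 2.

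**Figure D3:**
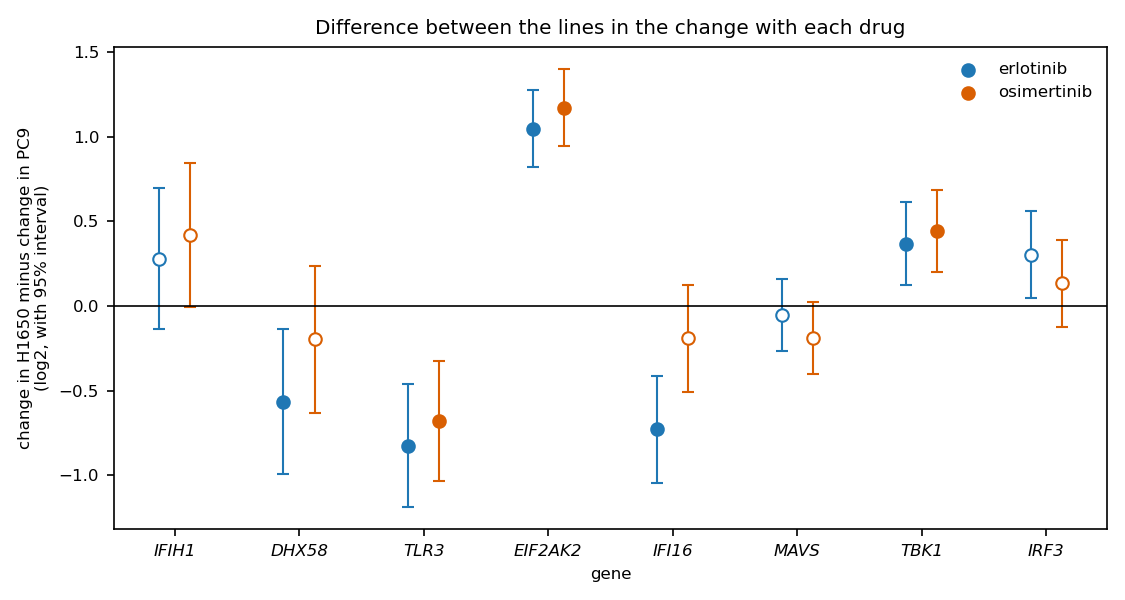
H1650 change less the PC9 change on the log2 scale (y axis, with 95% interval from the edgeR fit) for the 8 tested genes, with erlotinib in blue, osimertinib in orange and open symbols for differences not called. EIF2AK2 stands at 1.05 and 1.17, TBK1 at 0.37 and 0.44, and TLR3 at -0.83 and -0.68.

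Osimertinib and erlotinib were given at different doses, 0.1 µM and 10 µM, so their comparison is one of the treatments as given. In PC9 1 gene was higher and 1 lower with osimertinib, where 10.1% and 6.41% of all genes were, and in H1650 2 were higher and 1 lower, where 5.02% and 3.73% were. TLR3 was higher with osimertinib in PC9 (0.47, SE 0.109, edgeR adjusted p = 0.0026) and in H1650 (0.62, SE 0.113, edgeR adjusted p = 0.00047). IFI16 was higher with osimertinib in H1650 (0.56, SE 0.0967, edgeR adjusted p = 0.00021), while in PC9 the difference was 0.025 (95% interval -0.18 to 0.23, edgeR adjusted p = 0.93). DHX58 was lower with osimertinib in PC9 (-0.47, SE 0.126, edgeR adjusted p = 0.0086), a call lost without PC9 erlotinib replicate 1 (-0.26) or PC9 osimertinib replicate 1 (-0.44). In H1650 its difference was -0.11 (-0.36 to 0.15, edgeR adjusted p = 0.70). MAVS was lower with osimertinib in H1650 (-0.24, SE 0.0727, edgeR adjusted p = 0.034), a call lost without PC9 T0 replicate 1 or 2 (-0.24), H1650 erlotinib replicate 2 (-0.17) or H1650 osimertinib replicate 1 or 2 (-0.21 and -0.27). IFIH1, EIF2AK2, TBK1 and IRF3 were not called in either line, and the widest of their intervals was that of IFIH1 in PC9 (-0.40 to 0.25).

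Before treatment, 5 of the 8 genes were higher and 2 lower in H1650 than in PC9, where 35.8% and 33.8% of all genes were. Besides IFIH1, IFI16 and MAVS, the smaller differences were 0.50 for DHX58, 0.38 for TLR3, 0.25 for EIF2AK2 and -0.25 for IRF3 (edgeR adjusted p = 0.011, 0.015, 0.0057 and 0.014). Each of these 4 calls was lost in 2 of the fits that left out a T0 library. For DHX58 and TLR3 these were PC9 T0 replicate 2 and H1650 T0 replicate 2, and for EIF2AK2 and IRF3 they were PC9 T0 replicate 1 and H1650 T0 replicate 1. The TLR3 call was also lost under DESeq2 (0.36) and with no filter (0.32). TBK1 differed by 0.017 (95% interval -0.15 to 0.19, edgeR adjusted p = 0.87).

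The order of the 6 groups differed from gene to gene. IFIH1 and EIF2AK2 had all 3 H1650 groups above all 3 PC9 groups, with the treated H1650 groups first and overlapping each other. TLR3 ran from PC9 with osimertinib, the highest, through H1650 with osimertinib, PC9 with erlotinib and H1650 with erlotinib to H1650 and PC9 at T0, and no neighbours in this order overlapped. DHX58 was highest with erlotinib in both lines, where the groups overlapped, and IFI16 was highest in H1650 with osimertinib. For MAVS the treated PC9 groups came first, and PC9 at T0 overlapped with H1650 under erlotinib. For IRF3 the 5 highest groups each overlapped with the next, and H1650 at T0 lay apart below them.

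Of the other tested genes with a mean of at least 10 CPM, those whose log2 CPM followed each gene most closely over the 12 libraries were APBB2 for IFIH1 (Pearson r 0.995), IDH1 for DHX58 (0.981), NECTIN4 for TLR3 (0.981) and ITPR1 for EIF2AK2 (0.986). They were SYT7 for IFI16 (0.988), CCNDBP1 for MAVS (0.981), SOX9 for TBK1 (0.976) and RGL3 for IRF3 (0.844). The 12 points share 2 lines and 3 treatments, and each gene is the highest of 10293 candidates, so these values are descriptions.

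Beyond the 9 genes, 68 others that act in the same pathways were listed by role, and 56 of them were tested. These lists were also chosen with earlier results known, so their shares beside those of all genes are descriptions. In PC9 26 (46.4%) were called higher and 13 (23.2%) lower with erlotinib, beside 32.7% and 29.1% of all tested genes, and 28 and 12 (21.4%) with osimertinib, beside 32.7% and 28.7%. In H1650 28 were higher and 8 (14.3%) lower with erlotinib, beside 18.0% and 18.5% of all genes, and 28 and 10 (17.9%) with osimertinib, beside 17.8% and 17.9%. Their median log2 change was 0.23 and 0.32 in PC9, beside 0.074 and 0.064 over all genes, and 0.31 and 0.36 in H1650, beside 0.0051 and 0.

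Among 15 tested RNA sensors and RNA-binding effectors, 6 rose and 4 fell with erlotinib in PC9, 10 rose and 3 fell with osimertinib in PC9, and in H1650 11 rose and 2 fell with erlotinib, and 11 rose and 3 fell with osimertinib. The share called higher was 40% with erlotinib and 66.7% with osimertinib in PC9, beside 32.7% of all genes with each drug, and 73.3% with both drugs in H1650, beside 18.0% and 17.8%. The first of these is near the share of all genes. The share called lower was 26.7% and 20% in PC9, beside 29.1% and 28.7%, and 13.3% and 20% in H1650, beside 18.5% and 17.9%. These counts include calls on few reads. NLRP1, with at most 21 reads in any library, was called higher with both drugs in PC9 and lower with osimertinib in H1650. TLR7, with at most 12 reads, was called higher with osimertinib in PC9. IFIT2 and IFIT3, interferon-induced proteins that form complexes with the RNA-binding IFIT1, rose with both drugs in both lines. IFIT2 went from 3.24 ± 0.0221 CPM at T0 to 18.5 ± 1.30 and 50.0 ± 3.52 in PC9, and from 45.7 ± 1.32 to 99.2 ± 6.78 and 92.5 ± 7.29 in H1650 (SD, n = 2). IFIT3 rose by 1.92 and 2.76 in PC9 and by 1.44 and 1.70 in H1650. The RNA helicases DHX9 and DHX33, which have also been described as sensors, fell: DHX9 by 1.21 and 1.21 in PC9 and by 0.47 and 0.53 in H1650, and DHX33 by 0.99, 1.19, 0.38 and 0.43.

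Only 3 of the 7 other DNA sensing genes had enough reads to be tested, and 2 of them moved in opposite directions in all 4 comparisons. The third, DDX41, changed by 0.023 and 0.037 in PC9 and by -0.22 and 0.00055 in H1650, called only with erlotinib in H1650. Of all tested genes, 32.7% were called higher with each drug in PC9, and 29.1% and 28.7% lower. In H1650 these shares were 18.0% and 17.8% higher and 18.5% and 17.9% lower. CGAS, the enzyme that makes the second messenger cGAMP on binding DNA, fell from 60.4 ± 1.22 CPM to 16.4 ± 0.240 and 15.3 ± 0.426 in PC9, and from 20.3 ± 1.34 to 13.8 ± 1.52 and 13.2 ± 0.266 in H1650 (SD, n = 2). STING1, the receptor of cGAMP, rose from 13.9 ± 0.110 CPM to 17.2 ± 0.514 and 31.9 ± 2.18 in PC9, and from 39.0 ± 3.68 to 122.0 ± 0.107 and 128.5 ± 3.52 in H1650 (SD, n = 2). The log2 changes of CGAS were -1.88, -1.98, -0.55 and -0.61 (edgeR adjusted p between 1.7e-15 and 0.00024), and those of STING1 were 0.31, 1.20, 1.64 and 1.72 (edgeR adjusted p between 4.4e-15 and 0.011).

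Of 18 adaptors, kinases and cofactors, 9 rose and 4 fell with erlotinib and 10 rose and 4 fell with osimertinib in PC9, and 7 rose and 1 fell, and 8 rose and 2 fell, in H1650. The share called higher was 50% and 55.6% in PC9, beside 32.7% of all genes with each drug, and 38.9% and 44.4% in H1650, beside 18.0% and 17.8%. The share called lower was 22.2% with each drug in PC9, beside 29.1% and 28.7%, and 5.56% and 11.1% in H1650, beside 18.5% and 17.9%. MYD88, the adaptor of most Toll-like receptors, rose by 0.70 and 1.20 in PC9 and by 0.31 and 0.43 in H1650. TANK, a scaffold that binds TBK1, rose by 0.45, 0.52, 0.61 and 0.60. IRAK1, a kinase downstream of MYD88, fell from 983 ± 3.71 CPM to 340 ± 17.9 and 267 ± 0.0754 in PC9, and from 303 ± 17.8 to 185 ± 7.52 and 178 ± 10.7 in H1650 (SD, n = 2). Of 10 tested nucleases, editors and other brakes, 5 rose and 3 fell with erlotinib and 2 rose and 4 fell with osimertinib in PC9, and 5 rose and 1 fell, and 4 rose and 2 fell, in H1650. With 10 genes 1 call is 10% of the list, and all-gene shares were 32.7% higher with each drug and 29.1% and 28.7% lower in PC9, and 18.0% and 17.8% higher and 18.5% and 17.9% lower in H1650. The fall with erlotinib in PC9 and with osimertinib in H1650 is near the share of all genes. DNASE2, the lysosomal DNase, rose by 1.62, 1.12, 1.41 and 0.99, and RNASEH2C, a subunit of RNase H2, fell by 0.44, 0.46, 0.26 and 0.38.

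The listed interferon and chemokine genes had at most 17 reads in any PC9 library, and whether IRF3 acts on them in these cells was not tested. IFNB1 had 0 reads in all 6 PC9 libraries and 2 to 9 reads per library in H1650. IFNL1 had 0 reads in PC9 and at most 14 in H1650, IFNE at most 17 in any library, and CXCL10 at most 10. IFNB1 and CXCL10 were below the filter and were not tested, and IFNL1 and IFNE were tested and not called in a drug comparison. CCL5, a chemokine, had 0 to 4 reads in PC9 but was measurable in H1650, at 17.1 and 17.1 CPM at T0, 28.6 and 34.5 with erlotinib, and 39.7 and 38.8 with osimertinib. Treated and T0 libraries did not overlap, and CCL5 rose by 0.89 and 1.20 in H1650 (SE 0.145 and 0.144, edgeR adjusted p = 2.0e-05 and 2.0e-07).

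Of the genes that act downstream of the interferon receptor, STAT2, a subunit of the transcription complex ISGF3, rose from 22.0 ± 0.611 CPM to 104 ± 2.35 and 139.9 ± 6.02 in PC9, and from 117 ± 4.72 to 232.5 ± 1.63 and 231 ± 18.7 in H1650 (SD, n = 2). IRF9, its DNA-binding partner, rose by 1.13, 1.39, 0.95 and 0.76 (edgeR adjusted p between 0.00035 and 0.011) from a mean of 0.946 CPM in PC9 and 3.17 CPM in H1650. Exons of IRF9 overlap AL136295.5 on the same strand, those of DHX33 overlap C1QBP and those of IFIT2 overlap AL353751.1, so their counts may have lost or gained reads. Exons of CGAS, TANK, RNASEH2C and DNASE2 overlap genes on the opposite strand.

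**Figure D4:**
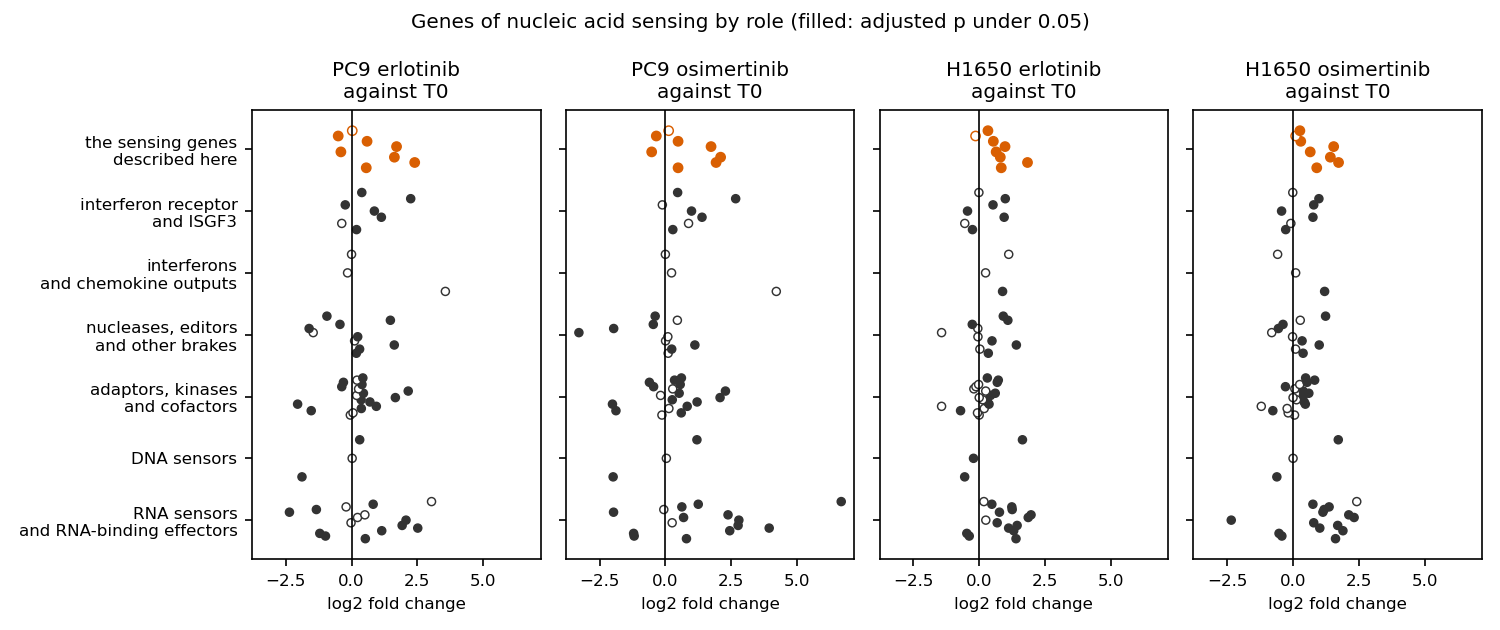
Log2 fold change against T0 (x axis) of each tested gene of the pathways in the 4 drug comparisons, 1 panel each, with the roles as rows, the 8 tested genes described first in orange and called changes filled. In each panel RNA sensors lie on both sides of 0, and the point at 6.68 in PC9 with osimertinib is TLR7, a gene with 0 reads in PC9 at T0 and at most 12 in any library, for which the fitted size is no measure of a fold.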

How the data were processed

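Poly(A) RNA of PC9 and H1650 cells was sequenced in 12 libraries. The authors processed reads with DolphinNext and featureCounts and deposited whole-number counts per gene and library without normalization, beside a gene length that was used for CPM per kb. This length is the summed length of a gene's exons and need not be that of a transcript. The submitters' processing notes name GRCh38 and DESeq2. The aligner, annotation and strand setting are not given in the sources used here. Samples were grouped by their labels.

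The analysis of counts used edgeR 4.0.16 in R 4.3.3 (TMM, expression filter by group, 19108 genes kept and 41483 left out, quasi-likelihood fit of 6 groups, 6 residual and 20.7 prior degrees of freedom). In 9 comparisons a gene was called when its Benjamini-Hochberg adjusted p over all tested genes was under 0.05. TMM factors were 0.941 to 1.08, the biological coefficient of variation was 0.0656, and mitochondrial genes took 4.36 to 7.20% of counts. Errors of CPM are the SD of 2 libraries. The procedure was tested on simulated data.

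The 9 genes and the role lists were chosen with earlier results of these data known. Besides the 9 genes, the text names, of each role list, up to 2 genes with the highest and 2 with the lowest mean change among those that all 4 drug comparisons called in 1 direction, outputs with at least 10 reads in a library, and the gene most correlated with each of the 8 tested genes (log2 CPM, prior count 2). RIGI, OAS3, OASL, NLRP1, TLR7, DDX41, IFNB1 and marker genes were named after their values were seen. Libraries of a group differed beyond counting error and were kept as separate replicates. Alternatives were DESeq2 1.42.0, upper quartile and RLE normalization, no filter, at least 10 counts in every library, 1 fit per line, the replicate number as a block, and leaving out each library. Of the role lists, 1 gene is counted in the totals but not reported here. The other experiments of the study were not analysed here.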

Additional observations from a re-analysis of the deposited data

Results flagged for a closer look

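The values in this paragraph were singled out because the change with a drug differed between the lines in the test of the difference itself (change in H1650 minus change in PC9, log2 scale). EIF2AK2 changed in opposite directions, by 1.05 more in H1650 with erlotinib and 1.17 more with osimertinib, with no overlap between treated and T0 libraries in either line. TBK1 differed by 0.37 and 0.44, and its fall in PC9 was the called part of that difference. TLR3 differed by -0.83 with erlotinib and -0.68 with osimertinib, while rising in both lines. IFI16 (-0.73) and DHX58 (-0.56) differed with erlotinib. The DHX58 value was -0.57 under DESeq2, not called there (adjusted p = 0.072), and -0.35 without PC9 erlotinib replicate 1. Groups of 2 libraries are too small for a test of single outlying libraries.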

How the results depend on the processing

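With 2 libraries per group, single libraries decide several calls. Of 1344 single-gene values under the alternatives, 1273 kept their direction and side of the threshold, 35 lost the call, 14 gained one and 22 changed sign, and the cause was not tested. With 1 library left out, the lone library of a group is assumed to vary like the others. The number of genes called was 3 to 6 for the erlotinib difference between the lines (5 with all libraries, 3 without PC9 T0 replicate 2 or without H1650 erlotinib replicate 1) and 1 to 2 for osimertinib against erlotinib in PC9 (2 with all libraries, 1 without PC9 erlotinib replicate 1 or without PC9 osimertinib replicate 1). IFIH1 and DHX58 in PC9 rest on the fewest reads.

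The values that changed sign were not called with all libraries. For TBK1 at T0 they were -0.0048 under DESeq2 and under RLE and -0.038 with no filter, and -0.023 to 0.051 with a library left out. For IRF3 with erlotinib in PC9 they were -0.035 with no filter and -0.014 with 1 fit per line, and -0.12 to 0.16 with a library left out. The other ranges with a library left out were -0.13 to 0.60 for the IFIH1 erlotinib difference between the lines, -0.11 to 0.031 for that of MAVS, and, for osimertinib against erlotinib, -0.18 to 0.040 (IFIH1, PC9), -0.037 to 0.16 (IFIH1, H1650), -0.080 to 0.11 (EIF2AK2, H1650), -0.14 to 0.21 (IFI16, PC9) and -0.037 to 0.24 (IRF3, PC9). MAVS gained a call in the osimertinib difference between the lines with upper quartile normalization (-0.25).

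The replicate numbers were not treated as pairing, because the labels tie them to no shared culture, batch or day. Deviations of same-numbered libraries nevertheless correlated at over 0.1 in 11 of 15 pairs of groups (0.00027 to 0.38). Whether libraries of the same number share a source was not tested. With the replicate number as a block, TBK1 in osimertinib against erlotinib in H1650 (0.24) and the IRF3 erlotinib difference (0.30) gained a call, and no other call among the 8 genes changed. Over all genes, osimertinib against erlotinib in H1650 gave 1672 calls, 2670 with the block, 1093 and 1045 without H1650 erlotinib replicate 1 and 2, and 782 without H1650 osimertinib replicate 1. The same comparison in PC9 gave 3163 calls and 2108 without PC9 osimertinib replicate 2.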
